A study of Mus musculus with 28 samples.

Results

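The genes described here are 40 genes of the interferon response and of antigen presentation by MHC class I, taken by symbol from the 50600 gene rows of a read count table. Rows were found for 40 of the 40 symbols, and 40 of 40 passed the low-count filter in stromal cells, in luminal cells and over both. By role they are 4 signalling and transcription factors, 4 sensors of foreign nucleic acid, 16 antiviral effectors, 7 genes of the ISG15, ubiquitin and ADP-ribosylation systems, 3 guanylate-binding proteins and 6 genes of MHC class I antigen processing.

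The cells were sorted by FACS from mammary glands of 7 adult female C57BL/6 mice carrying *PdgfrαCre* and *R26mTmG*, 4 untreated (U1 to U4) and 3 given estrogen plus progesterone (E1 to E3, E+P). In these mice Cre is constitutive, so GFP marks cells that expressed *Pdgfrα* at any time, together with their progeny, and tdTomato marks the remaining cells. Stromal cells were CD49f- EpCAM- and luminal cells CD49flo EpCAM+, after exclusion of cells with CD45, CD31 or Ter119, which mark blood and endothelial cells. Each mouse gave GFP+ luminal, tdTomato+ luminal, GFP+ stromal and tdTomato+ stromal cells, which makes 28 libraries in 8 groups with n = 4 untreated or n = 3 E+P mice. The methods give the hormone pellets in a sentence on wild-type mice.

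Interferons bind receptors on the cell surface that signal through JAK kinases, and a complex with STAT2 and IRF9 binds interferon-stimulated response elements (ISREs) in the promoters of many target genes. The products include sensors of viral RNA and DNA, effectors that block viral replication, and ISG15, a ubiquitin-like modifier. Interferon signalling also raises the MHC class I pathway, in which the immunoproteasome cuts peptides, the TAP transporter carries them into the endoplasmic reticulum, and a heavy chain paired with beta-2 microglobulin shows them at the surface. Many of these genes also have a basal level in cells with no infection.

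Levels are CPM, read counts scaled to library size with TMM factors. Values of single libraries are given in the order U1 to U4 and E1 to E3, errors are SD over mice, and adjusted p values are from edgeR's quasi-likelihood test with Benjamini-Hochberg adjustment over all genes tested, with calls at 0.01. Between 8623383 and 24583803 reads were counted per library, so that 3 counts are 0.122 to 0.308 CPM. The share of counts from mitochondrial genes ranged from 4.30% to 5.09% in GFP+ stroma and from 6.70% to 10.8% in tdTomato+ stroma. In GFP+ luminal libraries it was 6.23% to 9.35% in untreated and 13.7% to 15.9% in E+P mice. In tdTomato+ luminal libraries it was 9.90% to 10.4% in untreated and 10.7% to 12.8% in E+P mice. GFP+ stroma held the fibroblast markers at a summed 31228 to 60618 CPM in untreated mice, and tdTomato+ stroma held them at 2283 to 6207 CPM, beside pericyte and smooth muscle markers at 6524 to 9451 CPM and skeletal muscle markers at 2482 to 12971 CPM. GFP+ luminal cells were higher in 8 of 8 luminal progenitor markers and tdTomato+ luminal cells in 8 of 8 hormone-sensing markers. Epithelial keratin *Krt8* averaged 1699 and 1928 CPM in untreated GFP+ and tdTomato+ luminal cells, and 7.77 and 55.3 CPM in the stroma. Among untreated mice, mouse U3 stood apart in these genes, and its values are described at the end. In bulk libraries of this kind, fewer cells of a type and less RNA per cell cannot be told apart.

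Averaged over GFP+ and tdTomato+ cells, interferon response genes were higher in stroma than in luminal cells of the same mice. Most antigen processing genes were not called higher. Of the 40 members, 33 were called higher in stroma, where 33.0% of all genes tested were, and 1 was called lower, where 30.5% were. The median log2 fold change was 1.78 over members and 0.02 over all genes. A member called higher over both subsets need not be higher in each. *Usp18*, called higher, had 6.01, 4.996, 22.1 and 8.06 CPM in untreated tdTomato+ stroma. In tdTomato+ luminal cells of these mice it had 23.02, 17.7, 32.5 and 30.7 CPM. *Isg15*, described below, was higher in stroma in both subsets. By role, 15 of 16 antiviral effectors, 4 of 4 signalling factors, 3 of 4 sensors, 6 of 7 genes of the ISG15 group and 3 of 3 guanylate-binding proteins were higher in stroma, against 2 of 6 antigen processing genes. The members called higher ranged from 0.31 for *Irf9*, which binds the ISRE in a complex with STAT2, to 7.78 for *Ifit3*. The *Irf9* call was lost with library size scaling only (0.02), without the low-count filter and without mouse E1, E2, E3 or U3. That of *Ifi44* was kept in 2 of 7 fits that leave out a mouse. It was also lost with library size only and without the filter. *Rsad2*, or viperin, which makes a chain-terminating nucleotide, was higher by 3.99, and the dynamin-like GTPases *Mx1* and *Mx2*, whose alleles are defective in C57BL/6 mice, by 3.78 and 3.87. The guanylate-binding proteins *Gbp2*, *Gbp3* and *Gbp7*, which act on vacuoles of pathogens, were higher by 2.67, 2.95 and 1.76.

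**Figure D1:**
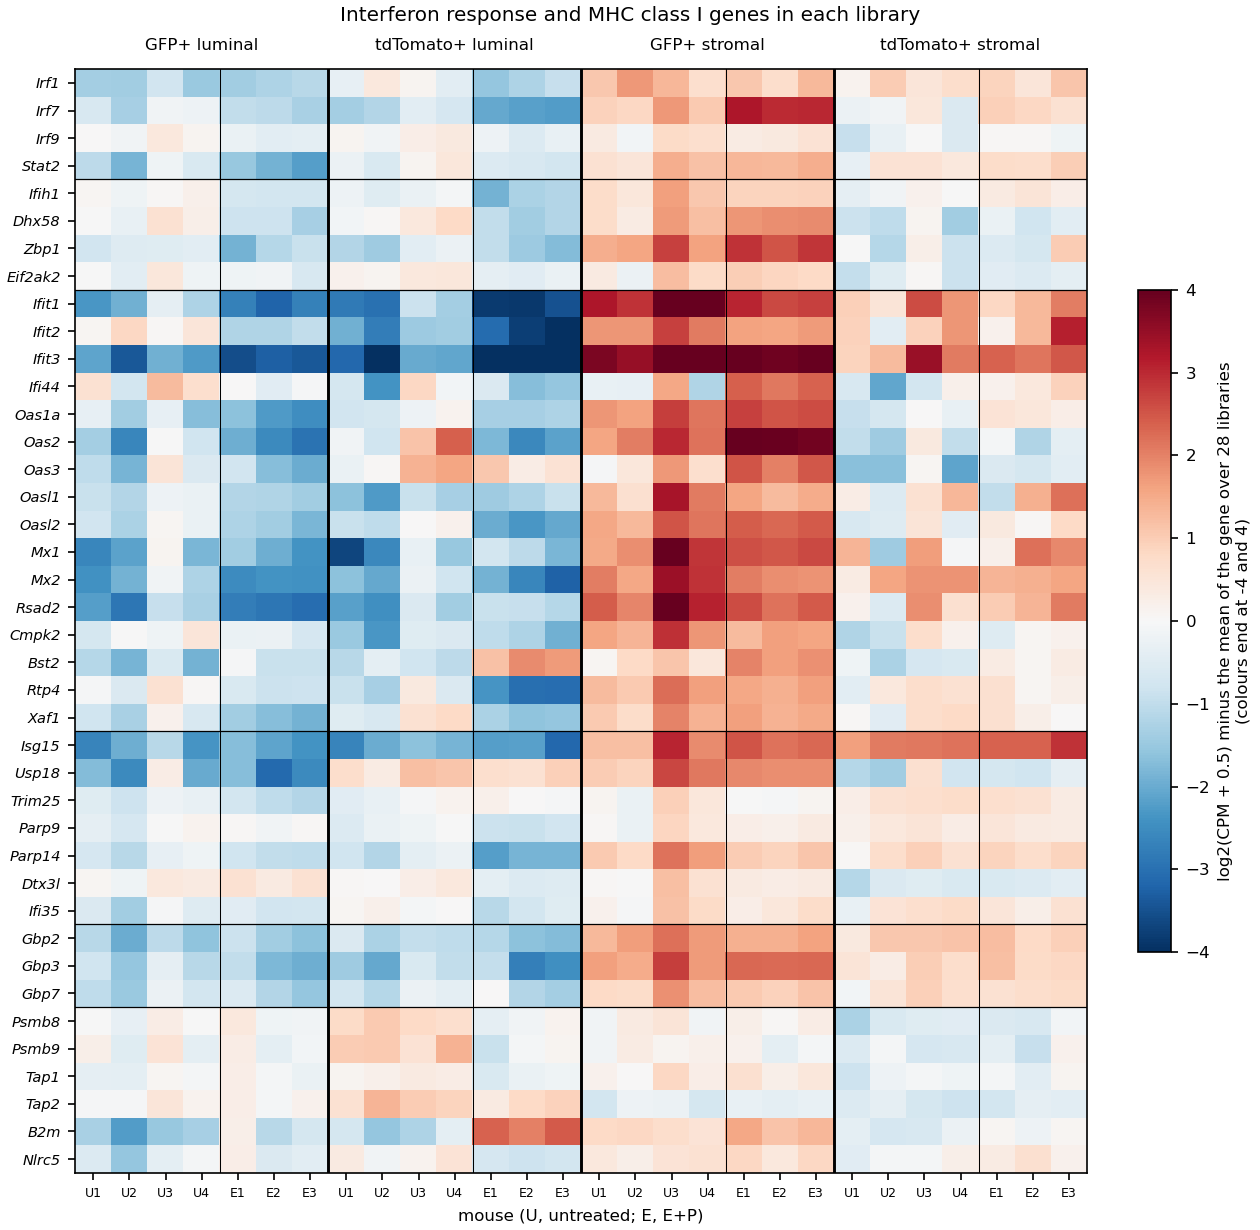
Each row is a member and each column a library, grouped by sorted population with untreated mice left and E+P mice right of each thin line. Colour is log2(CPM + 0.5) minus the mean of the gene over 28 libraries, and colours end at -4 and 4. GFP+ stroma holds the highest group mean of 33 members, 17 in untreated and 16 in E+P mice.

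*Ifit3* (ENSMUSG00000074896.3, chromosome 19, 34583531 to 34588731) encodes an effector that acts with other IFIT proteins on foreign RNA. It was counted at 159, 129.9, 593 and 272 CPM in untreated GFP+ stroma and 21.1, 27.7, 127 and 48.8 CPM in untreated tdTomato+ stroma. In the luminal cells of these mice it reached at most 2.60 CPM, so no stromal library overlapped a luminal one. Stroma was higher by 7.78 on the log2 scale (SE 0.42, adjusted p = 1.2e-13, edgeR). Reads of *Ifit3* may be shared with its close copy *Ifit3b*, so its level is uncertain.

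*Ifit1* (ENSMUSG00000034459.8, chromosome 19, 34640871 to 34650009), which binds viral RNA with an unmodified 5′ end, had 341, 269, 1171 and 601 CPM in untreated GFP+ stroma. The 4 GFP+ luminal libraries of the same mice had 6.71, 9.02, 27.9 and 14.7 CPM. The difference over both subsets was 5.11 (0.35) on the log2 scale (adjusted p = 1.1e-11, edgeR).

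*Isg15* (ENSMUSG00000035692.6, chromosome 4, 156199424 to 156200818) was scarce in luminal cells, and its stromal subsets overlapped. It had 16.1, 16.03, 58.1 and 25.7 CPM in untreated GFP+ stroma and 21.6, 29.6, 30.5 and 31.5 CPM in untreated tdTomato+ stroma. In luminal libraries it lay between 0.300 and 2.83 CPM. It was higher in stroma by 4.91 (0.25, adjusted p = 7.7e-15, edgeR) in 7 of 7 mice.

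The single member called lower in stroma was *Tap2* (ENSMUSG00000024339.12, chromosome 17, 34203527 to 34216321), a subunit of the peptide transporter, at -0.88 (0.09, adjusted p = 3.3e-09, edgeR). Without hormone its mean was 109.7 ± 24.2 CPM for tdTomato+ luminal and 61.1 ± 11.1 CPM for GFP+ luminal cells, against 40.2 ± 8.30 CPM and 36.2 ± 4.99 CPM in GFP+ and tdTomato+ stroma. *Tap1*, the other subunit, was not called (0.26, adjusted p = 0.024, edgeR), and neither was the immunoproteasome subunit *Psmb8* (-0.30, adjusted p = 0.016). *B2m* (ENSMUSG00000060802.8, chromosome 2, 122147686 to 122153083), beta-2 microglobulin, was higher in stroma by 0.62 (0.13), in 5 of 7 mice, all but E1 and E3. It was not called with library size scaling only (0.33, adjusted p = 0.036, edgeR). With E+P it had 545, 453 and 551 CPM in tdTomato+ stroma and 2695, 2126 and 2858 CPM in tdTomato+ luminal cells. The E+P values were 1527, 1144 and 1321 CPM in GFP+ stroma and 609.6, 243 and 321 CPM in GFP+ luminal cells. *Nlrc5*, a transactivator of MHC class I genes, was higher by 0.77 (0.12) in 7 of 7. The other members not called were *Eif2ak2*, *Oas3*, *Dtx3l* and *Psmb9*. Per kilobase of exon, *B2m* was the most abundant member in each of the 8 groups, from 208 to 2976 CPM per kilobase.

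Receptors and kinases of the pathway outside the members were also higher in stroma, with 7 of 10 called higher and 2 lower. The kinase *Jak1* averaged 717 CPM in GFP+ stroma and 216 CPM in GFP+ luminal cells of untreated mice (log2 fold change 1.87 over both subsets). *Jak2* averaged 239.8 and 91.8 CPM in the same groups and was not called (0.20, adjusted p = 0.11, edgeR). *Ifnlr1*, a subunit of the receptor for type III interferons, was the reverse, at 46.3 CPM in untreated GFP+ luminal cells against 0.227 CPM in GFP+ stroma (log2 fold change -7.83, adjusted p = 3.3e-12, edgeR). Of 10 nucleic acid sensing adaptors tested 5 were higher and 2 lower in stroma, and of 9 feedback inhibitors 5 were higher and 2 lower. Of 10 interferon ligands listed, 1 passed the low-count filter, *Ifnb1*, whose highest group mean was 4.95 ± 5.60 CPM in E+P tdTomato+ stroma. Markers of immune cells summed to 28.2 to 62.2 CPM in untreated tdTomato+ stroma and 4.37 to 7.92 CPM in GFP+ stroma, against 7.69 to 9.90 CPM in GFP+ luminal cells. The part of these cells in the stromal levels was not tested.

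The upstream sequences of members that hold an ISRE core are shown for the 4 with the highest mean CPM among those whose libraries are given one by one. They come from RefSeq promoters of GRCm38.p6, which were found for 29 of the 40 members. The core searched was GAAA, any 2 bases and a second GAAA, on both strands. Of the 29 members, 14 (48.3%) held it between 250 bases before and 50 after the start, and of all 27025 genes with a RefSeq promoter, 3.99% did. The core of the gamma-activated site, TTC, any 3 bases and GAA, was in 8 of the 29 (27.6%) and in 9.55% of all genes. A core can overlap a second one. The 250 bases before the annotated start are printed 5′ to 3′ on the strand of the gene, with ISRE cores in capitals (on the other strand they read TTTC, any 2 bases, TTTC).
*B2m*, chr2:122147437-122147686, + strand: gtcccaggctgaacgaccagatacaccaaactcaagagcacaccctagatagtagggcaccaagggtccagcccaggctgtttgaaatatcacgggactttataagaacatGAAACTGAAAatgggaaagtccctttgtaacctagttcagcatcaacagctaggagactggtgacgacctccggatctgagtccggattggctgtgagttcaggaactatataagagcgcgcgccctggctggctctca
*Ifit1*, chr19:34640639-34640888, + strand: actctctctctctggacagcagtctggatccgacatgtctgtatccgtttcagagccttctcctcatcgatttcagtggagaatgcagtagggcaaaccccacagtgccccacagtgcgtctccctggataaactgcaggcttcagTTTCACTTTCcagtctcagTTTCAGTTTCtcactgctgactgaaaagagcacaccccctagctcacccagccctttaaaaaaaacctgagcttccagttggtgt
*Stat2*, chr10:128270248-128270497, + strand: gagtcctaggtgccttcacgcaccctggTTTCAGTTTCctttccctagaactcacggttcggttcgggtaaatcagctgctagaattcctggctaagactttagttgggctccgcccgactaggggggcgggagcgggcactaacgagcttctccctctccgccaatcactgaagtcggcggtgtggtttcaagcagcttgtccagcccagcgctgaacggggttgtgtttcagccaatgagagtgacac
*Ifit3*, chr19:34583279-34583528, + strand: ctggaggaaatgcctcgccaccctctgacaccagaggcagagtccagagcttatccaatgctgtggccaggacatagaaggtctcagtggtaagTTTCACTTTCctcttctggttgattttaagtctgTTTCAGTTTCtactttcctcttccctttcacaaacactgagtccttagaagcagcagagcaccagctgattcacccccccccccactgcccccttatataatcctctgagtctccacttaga
*Ifit1* and *Ifit3*, with the largest differences between stroma and luminal cells, each held 2 cores in this window, and *B2m* and *Stat2* held 1 each. These are matches of letters and do not show binding.

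Within the stroma, many interferon response genes were higher in GFP+ than in tdTomato+ cells. Of the 40 members, 24 were called higher, where 20.6% of all genes tested were, and 0 were called lower, where 21.3% were. Of the members, 33 had an unadjusted p under 0.05, 37 had a fold change above 0, and 0 were called lower by DESeq2 or limma. The median log2 fold change was 1.04 over members and -0.01 over all genes. The calls covered 4 of 4 sensors, 10 of 16 antiviral effectors, 3 of 4 signalling factors, 3 of 6 antigen processing genes, 2 of 3 guanylate-binding proteins and 2 of 7 genes of the ISG15 group. *Trim25*, a ubiquitin ligase that acts on the RNA sensor RIG-I, was at -0.40 (adjusted p = 0.029, edgeR) and was called lower without mouse U3 (-0.51, adjusted p = 0.0025), with the mouse as a replicate block (-0.43, adjusted p = 0.0081) and without the low-count filter (-0.38, adjusted p = 0.0083). It is named after its values were seen. The number of members called in either direction was 19 to 26 when each mouse was left out in turn, and without mouse U3 it was 24 higher and 1 lower.

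The 3 oligoadenylate synthetases *Oas1a*, *Oas2* and *Oas3*, which make the activator of RNase L on binding double-stranded RNA, had the largest log2 fold changes, from 2.52 to 3.81. *Oas2* (ENSMUSG00000032690.16, chromosome 5, 120730333 to 120749853) had 14.2, 19.7, 39.1 and 21.4 CPM in GFP+ stroma of untreated mice and 1.97, 1.31, 5.93 and 1.99 CPM in tdTomato+ stroma of the same mice. With E+P the values were 82.7, 75.1 and 71.0 CPM and 4.11, 1.64 and 3.21 CPM. The GFP+ and tdTomato+ libraries did not overlap under either treatment. The log2 fold change over both was 3.81 (SE 0.35, adjusted p = 5.6e-07, edgeR).

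*Oas1a* had 11.5, 10.3, 23.3 and 14.9 CPM in untreated GFP+ stroma and 1.34, 1.67, 3.00 and 2.37 CPM in tdTomato+ stroma, a difference of 2.52 (0.22) over both treatments. *Zbp1*, a sensor of Z-form nucleic acid that can start cell death, had 39.1, 42.3, 94.0 and 43.1 CPM and 13.8, 5.96, 16.4 and 7.40 CPM in the same groups, a difference of 2.44 (0.36). Each was higher in GFP+ stroma of 7 of 7 mice, and the libraries of the untreated groups did not overlap. *Oas3* was scarcer, with 10.6 CPM in its highest group, and its reads may be shared with neighbouring paralogs, as those of *Oas1a* may. The other members called ranged from 0.54 for *Stat2* to 2.39 for *Usp18*.

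*Irf7* (ENSMUSG00000025498.15, chromosome 7, 141262706 to 141266481), the factor that amplifies type I interferon production, had 34.6, 32.7, 62.2 and 38.2 CPM in untreated GFP+ stroma and 15.3, 16.6, 24.8 and 12.04 CPM in tdTomato+ stroma. The groups did not overlap, and the log2 fold change over both treatments was 1.74 (0.17, adjusted p = 1.9e-07, edgeR). *Stat2* (ENSMUSG00000040033.16, chromosome 10, 128270559 to 128292849) had 118, 108, 212 and 172 CPM and 61.2, 114, 115 and 104 CPM in the same groups, which overlapped, and its log2 fold change was 0.54 (0.16, adjusted p = 0.0096, edgeR) with 6 of 7 mice higher. This call was lost without mouse E1, E2, E3, U3 or U4, with DESeq2 size factors and with library size only. *Isg15* was not called, at -0.13 (95% interval -0.65 to 0.38), and was higher in GFP+ stroma of 2 of 7 mice.

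For antigen presentation, *B2m* had 898, 920.1, 852 and 761 CPM in untreated GFP+ stroma and 399, 327, 337 and 442 CPM in tdTomato+ stroma, with no overlap, and differed by 1.23 (0.10, adjusted p = 2.6e-08, edgeR). *Psmb8* (0.71) and *Tap1* (0.57) were also higher, each in 7 of 7 mice. The *Tap1* call was lost without mouse E1 or E2 and with library size only, and the *Psmb8* call without mouse E1, while *Nlrc5* was not called (0.38, adjusted p = 0.013, edgeR). Of the 11 class I heavy chain genes listed outside the members, 9 were higher and 0 lower. *H2-D1* averaged 529 ± 70.4 CPM in untreated GFP+ and 257 ± 20.3 CPM in tdTomato+ stroma, and *H2-K1* 407 ± 63.9 CPM and 264 ± 26.1 CPM. Of 9 peptide loading and trimming genes, 8 were higher and 0 lower. The chaperones *Calr* and *Canx* were higher by 0.36 and 0.33 on the log2 scale. Reads can be shared among the heavy chain genes, so their split is uncertain.

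By treatment, 20 members were called higher in GFP+ stroma of untreated mice, where 13.5% of all genes were, and 13 in E+P mice, where 14.2% were. Of these, 12 were called under both treatments, among them *Irf7*, *Oas2*, *Usp18*, *Bst2* and *B2m*. The E+P number was 7, 6 or 8 without mouse E1, E2 or E3. When only the groups compared were fitted, 20 members were called higher and 1, *Trim25*, lower with E+P, and 13 higher in untreated mice. The subsets also differed in cell markers. The 8 fibroblast markers were each higher in GFP+ stroma, the 8 pericyte and smooth muscle and the 8 skeletal muscle markers each higher in tdTomato+ stroma. So were 6 of 8 endothelial markers, though the endothelial sum was 186 to 263 CPM in untreated GFP+ and 74.5 to 155 CPM in untreated tdTomato+ stroma. Of the 6 immune markers tested 3 were higher in tdTomato+ stroma, where *Ptprc* (CD45) averaged 12.6 CPM against 0.186 CPM in GFP+ stroma of untreated mice. Their part in the interferon gene differences was not tested.

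**Figure D2:**
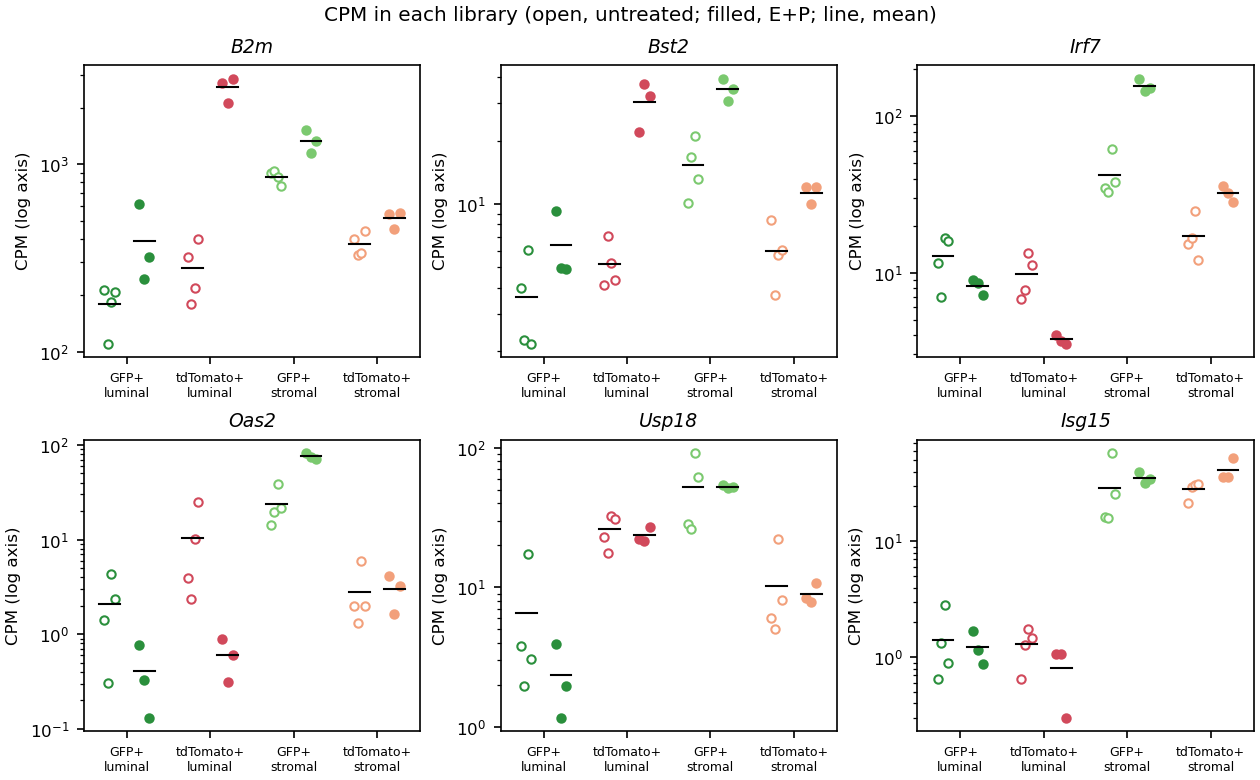
CPM on log axes for 6 members, with 1 point for each library, open for untreated and filled for E+P mice, and a line at the mean of each group. *Oas2* and *Irf7* are highest in GFP+ stroma of E+P mice, *B2m* in tdTomato+ luminal cells of E+P mice, and *Usp18* is higher in GFP+ than tdTomato+ stroma and lower in GFP+ than tdTomato+ luminal cells.

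In luminal cells members were called in both directions, each at near the share of all genes tested. GFP+ luminal cells were higher in 7, where 15.7% of all genes tested were, and lower in 8, where 19.0% were. The medians were -0.09 over members and 0.00 over all genes. With scaling by library size only the split was 8 higher and 6 lower. Those higher in GFP+ cells were *Ifit2*, *Rtp4*, *Irf7*, *Parp14*, *Ifih1*, *Dtx3l* and *Parp9*, and those lower were *Usp18*, *Oas3*, *B2m*, *Bst2*, *Stat2*, *Tap2*, *Trim25* and *Irf1*. *Dtx3l* and *Parp9* overlap on opposite strands, as do *Tap1* and *Psmb9*, and *Rtp4* and *Masp1*. *Irf9* overlaps *Rnf31* on the same strand. Whether the counting used strand is not stated, so the split of reads within these pairs is uncertain. *Masp1* held 1029 reads and *Rtp4* 10195. Between GFP+ and tdTomato+ cells *Masp1* differed by 3.89 (0.51) in stroma and 2.01 (0.64) in luminal cells. E+P changed it by -2.38 (0.97) in tdTomato+ and -4.02 (0.89) in GFP+ luminal cells. *Rtp4* had the same sign in each, and the part of *Masp1* reads in its values was not tested. The calls of *Irf7*, *Parp9* and *Irf1* were each lost in 5 of 7 fits that leave out a mouse. Leaving out mouse E2 or mouse E3 left 9 calls each, and without mouse U3 there were 15.

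*Ifit2*, an effector of the same family as *Ifit1*, had 17.7, 30.1, 17.1 and 23.7 CPM in untreated GFP+ luminal cells and 4.06, 2.02, 5.75 and 6.03 CPM in tdTomato+ luminal cells. With E+P it had 6.98, 6.93 and 8.22 CPM and 1.55, 0.760 and 0.200 CPM. The subsets did not overlap under either treatment, and the log2 fold change was 2.76 (0.33, adjusted p = 2.1e-05, edgeR). *Rtp4*, a chaperone of receptor transport that is also induced by interferon, was higher by 1.42 (0.28) and had 10.7, 8.86 and 9.09 CPM against 2.78, 1.61 and 1.55 CPM with E+P. *Parp14*, an ADP-ribosyltransferase, was higher by 0.56 (0.16), with 83.0, 72.6 and 70.9 CPM against 30.9, 39.4 and 38.8 CPM with E+P. In untreated mice it had 90.5, 66.9, 114 and 128 CPM against 82.9, 63.9, 109 and 123 CPM, which overlapped. The *Parp14* call over both treatments was lost without mouse E1, E2, E3, U1 or U3, by limma and without the low-count filter. Each of the 3 was higher in GFP+ cells of 7 of 7 mice.

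*Usp18* (ENSMUSG00000030107.10, chromosome 6, 121245906 to 121270917), the protease that removes ISG15 and dampens interferon receptor signalling, was the member with the most negative log2 fold change. It had 3.80, 1.95, 17.2 and 3.06 CPM in untreated GFP+ luminal cells and 23.02, 17.7, 32.5 and 30.7 CPM in tdTomato+ luminal cells. With E+P it had 3.91, 1.16 and 1.96 CPM and 22.3, 21.5 and 27.2 CPM. The subsets did not overlap, and the log2 fold change of GFP+ over tdTomato+ cells was -2.67 (0.46, adjusted p = 4.8e-04, edgeR).

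*B2m* had 213, 110.4, 183 and 209 CPM in untreated GFP+ luminal cells and 320.5, 179, 219.9 and 397 CPM in tdTomato+ luminal cells, which overlapped, and 609.6, 243 and 321 CPM against 2695, 2126 and 2858 CPM with E+P, which did not. The log2 fold change was -1.68 (0.24, adjusted p = 1.2e-04, edgeR) over both treatments. *Bst2* (ENSMUSG00000046718.8, chromosome 8, 71534255 to 71537456), or tetherin, which holds budding virus on the cell membrane, differed by -1.38 (0.25) in 6 of 7 mice. *Stat2* differed by -1.01 (0.24), lower in 7 of 7, with 37.1, 20.9, 67.6 and 50.7 CPM against 65.4, 50.6, 83.2 and 105 CPM in untreated mice.

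By treatment, 4 members were called in untreated mice, where 15.4% of all genes tested were, and 11 with E+P, where 25.4% were. *Ifit2* was the 1 member called in both without a block for the mouse. The others in untreated mice were *Irf1* (-1.198), *Tap2* (-0.84) and *Psmb8* (-0.83). *Psmb8* had 24.1, 19.1, 30.1 and 24.2 CPM in untreated GFP+ and 41.7, 51.3, 42.4 and 38.8 CPM in tdTomato+ cells, with no overlap, and was not called with E+P (0.15, adjusted p = 0.58, edgeR). With the mouse as a replicate block, which uses the pairing of the subsets, 7 members were called in untreated mice, where *Psmb8* was lost and *Usp18*, *Stat2*, *Oas2* and *Nlrc5* were gained. *Stat2* was then called with E+P as well (-1.27, adjusted p = 4.5e-04, edgeR). The *Psmb8* call was also lost without mouse U1 or U2, and without mouse U2 there was 1. Without mouse E1, E2 or E3 the E+P number was 6, 4 or 5.

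Of 10 heavy chain genes tested, 7 were lower in GFP+ luminal cells and 0 higher, with *H2-D1* at -1.16 (0.15) and *H2-K1* at -0.82 (0.15). Of 9 peptide loading genes, 5 were lower and 0 higher, among them *Calr* (-0.75) and *Canx* (-0.56). *Jak2* was lower, at -1.86 (0.17), and the interferon gamma receptor subunit *Ifngr1* was higher by 1.36 (0.14). The subsets differed in the kind of luminal cell too. The 8 hormone-sensing markers summed to 4207 to 5986 CPM in untreated tdTomato+ and 329.9 to 2002 CPM in GFP+ cells, and the 8 luminal progenitor markers to 322 to 1361 CPM and 2842 to 4745 CPM. Their part in these differences was not tested.

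The difference between GFP+ and tdTomato+ cells was itself unlike in stroma and luminal cells for 19 members. It was more positive in stroma for 18, where 16.3% of all genes tested were called, and more negative for 1, *Ifit2*, where 17.0% were. Members of opposite direction, called higher in GFP+ stroma and lower in GFP+ luminal cells, were *Stat2*, *Oas3*, *Bst2*, *Usp18* and *B2m*. The luminal call of *Stat2* was lost without mouse E1, E2, E3, U1 or U4, without the low-count filter and with library size only, and that of *Oas3* without mouse E2, E3 or U4 and without the filter. Called higher in GFP+ cells of both lineages were *Irf7*, *Ifih1*, *Rtp4* and *Dtx3l*.

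**Figure D3:**
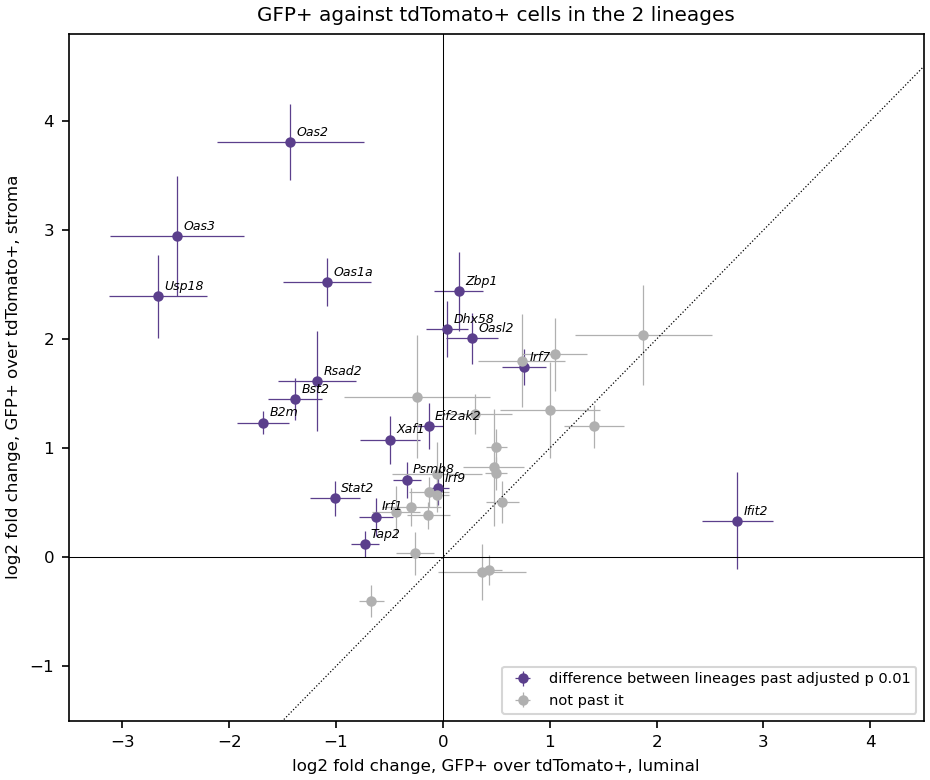
Log2 fold change of GFP+ over tdTomato+ cells in stroma (vertical axis) against luminal cells (horizontal axis) for 40 members, with bars of 1 SE and a dotted line of equality. The 19 members in purple differ between the lineages, and *Usp18*, *Oas3* and *Oas2* lie at the upper left.

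For *Usp18* the difference between the lineages was 5.05 (0.62, adjusted p = 5.7e-07, edgeR) on the log2 scale. In untreated stroma it had 28.7, 26.4, 92.3 and 61.5 CPM in GFP+ cells and 6.01, 4.996, 22.1 and 8.06 CPM in tdTomato+ cells, the reverse of the order in luminal cells. *Oas2* differed by 5.22 (0.81) and *Oas1a* by 3.61 (0.45), though neither was called between the luminal subsets (-1.43 and -1.09, adjusted p = 0.11 and 0.042, edgeR). *B2m* differed by 2.91 and *Bst2* by 2.82. *Stat2* differed by 1.54, *Irf7* by 0.97 and *Psmb8* by 1.04. The heavy chain genes had the same split, with 8 of 11 called more positive in stroma, as did 9 of 9 peptide loading genes.

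E+P went with more members called lower than higher in tdTomato+ luminal cells. *B2m* and *Bst2* rose, 2 of 40, a smaller share than the 7.63% of all genes tested called higher. *Ifit3*, *Oas2*, *Rtp4*, *Ifit2*, *Oasl2*, *Xaf1*, *Dhx58*, *Irf7*, *Parp14*, *Psmb9*, *Irf1*, *Ifih1*, *Psmb8* and *Dtx3l* fell, 14 of 40 where 6.44% of all genes were called lower. The median was -0.66 over members and -0.05 over all genes, and 34 of 40 were below 0. Many calls depended on single mice. Without mouse E1, E2 or E3 there were 9, 4 or 7, and without mouse U4 there were 9. The 4 left without mouse E2 were *B2m*, *Bst2*, *Ifih1* and *Parp14*.

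*B2m* had 320.5, 179, 219.9 and 397 CPM in tdTomato+ luminal cells of untreated mice and 2695, 2126 and 2858 CPM with E+P. Every E+P library lay above every untreated one. The means were 279 ± 98.5 CPM and 2559 ± 384 CPM and the log2 fold change was 3.22 (SE 0.35, adjusted p = 5.9e-05, edgeR). It was called with each mouse left out, between 3.06 and 3.42.

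*Bst2* had 4.12, 7.05, 5.23 and 4.36 CPM and 21.8, 36.9 and 32.4 CPM in the same groups. The libraries did not overlap, and the log2 fold change was 2.56 (0.35, adjusted p = 2.1e-04, edgeR), between 2.39 and 2.76 with each mouse left out. These were also the 2 members with a fold change above 0 in each of the 4 populations.

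*Oas2* had 3.95, 2.33, 10.2 and 25.1 CPM in tdTomato+ luminal cells of untreated mice and 0.8999, 0.313 and 0.601 CPM with E+P, and fell by 4.12 (0.99, adjusted p = 0.0087, edgeR) on the log2 scale. The untreated libraries were spread widely, and the call was kept in 1 of 7 fits that leave out a mouse, the one without mouse U2. *Rtp4* had 8.61, 6.26, 21.4 and 10.8 CPM and 2.78, 1.61 and 1.55 CPM and fell by 2.58 (0.43). *Oasl2*, an OAS-like protein, had 20.96, 18.9, 39.5 and 43.5 CPM and 9.41, 7.29 and 9.01 CPM and fell by 1.82 (0.36). The *Rtp4* call was lost without mouse E2 or E3, and the *Oasl2* call without mouse E1, E2 or E3. In each of these 3, every E+P library lay below every untreated one. In tdTomato+ luminal cells this held for 22 members, where 18.1% of all genes tested did so. Libraries lay wholly above for 2 members, where 17.4% of all genes did.

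*Irf7* had 6.77, 7.73, 13.3 and 11.2 CPM and 4.01, 3.67 and 3.50 CPM, with no overlap, and fell by 1.37 (0.30, adjusted p = 0.0044, edgeR), a call lost without mouse E1, E2, E3, U3 or U4. *Psmb8* had 41.7, 51.3, 42.4 and 38.8 CPM and 18.7, 22.1 and 26.8 CPM and fell by 0.94 (0.19, adjusted p = 0.0026), a call lost without mouse E2. *Ifit3*, with the largest fitted change, was scarce. It had 105 counts over 4 untreated libraries (15, 3, 32 and 55) and 3 counts over 3 E+P libraries (0, 3 and 0). This is a level 26.2-fold lower with an exact 95% interval of counting error from 8.72 to 129-fold, which leaves out the spread between mice. The *Ifit3* call was kept in 1 of 7 fits that leave out a mouse, the one without mouse U2. It was also lost by limma, with only the groups compared and with the replicate number as a block.

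*Tap1* (37.1, 40.1, 44.3 and 43.1 CPM against 22.4, 28.6 and 30.5 CPM, adjusted p = 0.013, edgeR) and *Nlrc5* (47.9, 34.0, 41.0 and 55.0 CPM against 23.2, 20.5 and 21.9 CPM, adjusted p = 0.022) did not overlap between treatments either and were not called. *Stat2* was not called (-0.61, adjusted p = 0.20, edgeR), nor was *Isg15* (-0.65, 0.45). Within antigen presentation the calls were mixed in direction, with *B2m* higher and *Psmb8* and *Psmb9* lower. The *Psmb9* call was kept in 1 of 7 fits that leave out a mouse, and lost with the replicate number as a block. The heavy chains *H2-D1* and *H2-K1* rose by 1.21 (0.21) and 0.87 (0.21), with means of 958 ± 345 CPM and 879.6 ± 297 CPM under E+P against 416 ± 61.2 CPM and 486 ± 91.9 CPM without. Together 3 of 10 heavy chains and 2 of 9 peptide loading genes were called higher and 0 lower, the second set being *Canx* (0.74) and *Pdia3* (0.79). *Jak2* rose by 1.48 (0.23), from 216 ± 46.3 CPM to 598 ± 69.2 CPM.

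**Figure D4:**
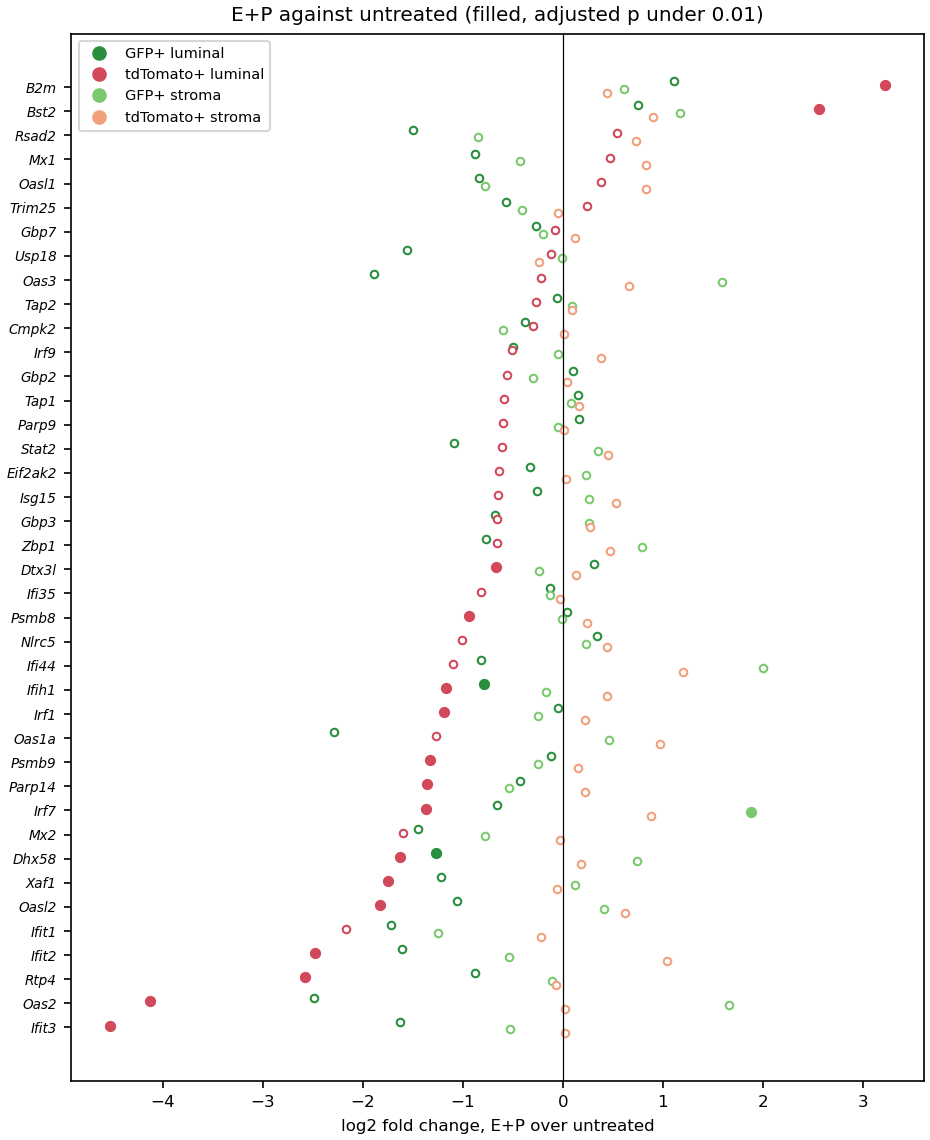
Log2 fold change of E+P over untreated for each member in the 4 populations, with members ordered by the value in tdTomato+ luminal cells and filled points for an adjusted p under 0.01. *B2m* and *Bst2* are above 0 in all 4 populations, and filled points below 0 are in luminal cells.

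Markers of luminal cell kinds moved with E+P in these cells. Of the 8 luminal progenitor markers 4 were lower in tdTomato+ luminal cells, whose sum was 322 to 1361 CPM untreated and 399.7 to 438 CPM with E+P. Of the 8 hormone-sensing markers 1 was called lower, and their sum was 4207 to 5986 CPM untreated and 1973 to 3290.3 CPM with E+P, without overlap. Immune markers summed to 6.19 to 7.64 CPM and 6.91 to 12.2 CPM, with *Ptprc* at 0.185 and 0.135 CPM. The endothelial sum was 33.3 to 142 CPM and 228 to 254 CPM, most of it *Vwf*, while *Pecam1* averaged 1.74 and 0.887 CPM. As given above, the mitochondrial share was higher with E+P in tdTomato+ luminal cells too, without overlap. The part of these markers and of this share in the changes of the members was not tested.

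In GFP+ luminal cells 2 members were called lower with E+P and 0 higher, where 5.96% of all genes tested were called. *Ifih1*, the RNA sensor MDA5, had 70.3, 59.9, 69.8 and 78.1 CPM in untreated and 41.4, 40.3 and 40.4 CPM in E+P mice, with no overlap, and fell by 0.79 (0.15, adjusted p = 0.0032, edgeR). *Dhx58*, the sensor LGP2, fell by 1.26 (0.29, adjusted p = 0.0099), from 9.10 ± 2.67 CPM to 3.86 ± 0.821 CPM. It is named after its values were seen, being under 10.0 CPM. The number was 0 without mouse E2, E3, U1 or U3, 1 without E1 or U4 and 3 without U2. The median was -0.66 over members and -0.03 over all genes, and 32 of 40 fold changes were below 0. Of the 14 members called lower in tdTomato+ luminal cells, 12 had a fold change below 0 here. For 8 members every E+P library lay below every untreated one, where 12.6% of all genes tested did. *B2m* alone lay wholly above, where 15.1% of all genes did. The luminal progenitor markers summed to 2842 to 4745 CPM in untreated and 1842 to 2049 CPM in E+P GFP+ luminal cells, with 1 of 8 called lower. The hormone-sensing markers summed to 329.9 to 2002 CPM and 193 to 310.0 CPM, with 3 of 8 called lower. The mitochondrial share was also higher with E+P in these cells, as given above. The part of these in the changes was not tested. *B2m* had 213, 110.4, 183 and 209 CPM and 609.6, 243 and 321 CPM, with no overlap, and was not called (1.11, adjusted p = 0.042, edgeR).

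The test of whether E+P changed the 2 luminal subsets differently called 0 members, where 2.27% of all genes tested were called, with 14 members at an unadjusted p under 0.05. DESeq2 called 3 and limma 2. With the mouse as a replicate block, which uses the pairing of the subsets, 5 were called, *Rsad2*, *Rtp4*, *Parp14*, *Dtx3l* and *B2m*. For *B2m* the difference of the changes was -2.11 (0.48, adjusted p = 0.021, edgeR) without the block and -2.23 (adjusted p = 0.0018) with it.

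In the stroma E+P went with few calls. In GFP+ stroma 1 member was called, where 0.231% of all genes tested were. *Irf7* had 34.6, 32.7, 62.2 and 38.2 CPM in untreated and 175, 146 and 152 CPM in E+P mice. The lowest E+P library was more than 2 times the highest untreated one, the mouse U3 library. The means were 41.9 ± 13.7 CPM and 158 ± 15.3 CPM, and the log2 fold change was 1.88 (SE 0.23, adjusted p = 5.1e-04, edgeR), between 1.77 and 2.14 with each mouse left out. *Phrf1*, a gene on the other strand that overlaps *Irf7*, changed by -0.02 (0.11). *Irf7* thus rose with E+P in GFP+ stroma and fell in tdTomato+ luminal cells, where the means were 9.75 ± 3.05 CPM and 3.73 ± 0.258 CPM. The difference between these 2 changes was not tested.

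*Oas2* had 14.2, 19.7, 39.1 and 21.4 CPM in untreated and 82.7, 75.1 and 71.0 CPM in E+P GFP+ stroma, without overlap, and was not called (1.67, adjusted p = 0.12, edgeR). Without mouse U3 it was called, at 2.03 (adjusted p = 0.0019), as it was by DESeq2 (adjusted p = 0.0064) and limma (adjusted p = 0.0013) with all mice. *Bst2* had 10.1, 16.8, 21.1 and 13.1 CPM and 39.4, 30.9 and 35.0 CPM, also without overlap and not called (1.17, adjusted p = 0.046, edgeR), but called by DESeq2 (adjusted p = 0.0033) and limma (adjusted p = 0.0078). *B2m* had 898, 920.1, 852 and 761 CPM and 1527, 1144 and 1321 CPM (0.61, adjusted p = 0.065). Altogether 7 members had every E+P library above every untreated one and 1, *Ifit2*, had every one below, where 8.23% and 4.97% of all genes tested did. The median was -0.03 over members and 0.00 over all genes.

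In tdTomato+ stroma 0 members were called, where 0.124% of all genes tested were. Of the members, 6 had an unadjusted p under 0.05, and DESeq2 and limma called 0. Every E+P library lay above every untreated one for 7 members, *Irf7*, *Stat2*, *Ifih1*, *Oas1a*, *Bst2*, *Isg15* and *B2m*, where 5.67% of all genes tested did, and below for 0. *Irf7* had 15.3, 16.6, 24.8 and 12.04 CPM and 35.7, 32.5 and 28.2 CPM (0.88, adjusted p = 0.087, edgeR). Without mouse U3 it was called, at 1.12 (adjusted p = 0.0099). The test of a different E+P change in the 2 stromal subsets called 0 members, where 0.045% of all genes tested were called, with 2 at an unadjusted p under 0.05 and 0 called by DESeq2 or limma.

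The untreated mice were not alike in these genes. Mouse U3 had the highest of the 4 untreated values for 35 of 40 members in GFP+ stroma, 32 in GFP+ luminal cells, 24 in tdTomato+ stroma and 15 in tdTomato+ luminal cells, while it had the highest value for between 20.3% and 26.6% of all genes tested. In tdTomato+ luminal cells mouse U4 was highest for 19 members and for 32.9% of all genes tested. In 10 members, *Irf7*, *Ifit1*, *Ifit3*, *Mx1*, *Rsad2*, *Rtp4*, *Usp18*, *Gbp3*, *Gbp7* and *Tap1*, mouse U3 was highest in each of the 4 populations, and in *B2m* and *Nlrc5* it was highest in 0. Among E+P mice, mouse E1 was highest for 31 of 40 members in GFP+ luminal cells (34.9% of all genes), for 22 in tdTomato+ luminal cells (30.5%) and for 22 in GFP+ stroma (30.1%). In tdTomato+ stroma mouse E3 was highest for 24 (32.0%).

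**Figure D5:**
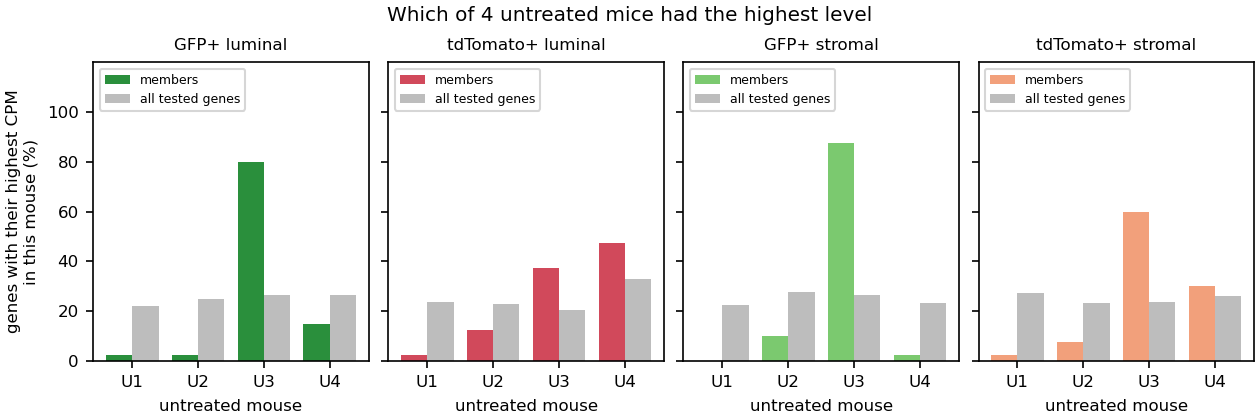
For each sorted population, the share of members (coloured bars) and of all tested genes (grey bars) whose highest CPM among the 4 untreated mice was in the mouse on the horizontal axis. Mouse U3 holds 35 and 32 of 40 members in GFP+ stroma and GFP+ luminal cells.

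*Ifit1* shows the spread, at 341, 269, 1171 and 601 CPM over untreated GFP+ stroma, where E+P mice had 299, 226 and 238 CPM. The E+P values overlapped the lower untreated ones, and the mouse U3 value was the highest of the 7. Without mouse U3 the number of members called was 33 between stroma and luminal cells, 12 for E+P in tdTomato+ luminal cells and 20 for the difference between the lineages.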

How the data were processed

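Libraries were made from total RNA of sorted cells with a stranded low-input kit and sequenced in pairs. RNA integrity varied widely between samples, per the methods. The authors deposited read counts per gene, made with STAR 2.5.2a on GRCm38.p5 per the labels, without normalization. The GENCODE release and whether strand was used are not given in the sources used here. Groups came from the sample titles. Symbols and coordinates are from GENCODE M21 (GRCm38), in which 50376 of 50600 gene IDs were found, and promoter sequences from RefSeq.

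Counts were scaled by TMM, filtered with filterByExpr and tested two-sided in edgeR 4.0.16 (R 4.3.3) by its quasi-likelihood test with robust dispersions, with groups of subset and treatment as terms. Fits used 14 stromal libraries (17783 genes), 14 luminal libraries (16538) or 28 libraries (19569). A gene was called at an adjusted p under 0.01, the threshold of the study. SE is the log2 fold change divided by the square root of F. The scripts were tested on simulated data. The interval of *Isg15* is taken from its SE, which includes the spread between mice. The exact interval of *Ifit3* and the floor of 3 counts cover counting error only, since reads carry no molecular identifiers.

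Libraries of the same mouse are paired, as titles and methods state. Deviations from group means were correlated over all genes past the low-count filter, not over the members alone. Within a mouse the mean was 0.06 between stromal subsets and 0.19 between luminal subsets (-0.02 and -0.07 between other mice). Untreated and E+P mice are different animals. Libraries of a group correlated at 0.963 or more and 0 pairs were identical.

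Single-library values are given for members past the threshold with the largest log2 fold changes, up to 3 in each direction, reaching a mean of 10.0 CPM in 1 of the groups and on the same side in every mouse, or no overlap for E+P, and for *Isg15*, *Irf7*, *Stat2*, *Bst2*, *B2m*, *Tap1*, *Psmb8* and *Nlrc5*. Outside this rule are the values of *Oas2* and *Ifit1* for E+P in GFP+ stroma, where neither was called. *Oas3*, which reached a mean of 10.0 CPM only in E+P GFP+ stroma, is given without single-library values. Pathway genes named are those with the largest mean CPM of their list or are named with their count. Members, lists and tests were chosen with earlier results of these data known. Alternatives were DESeq2 1.42.0 (Wald test, and its size factors in edgeR), library size only, limma 3.58.1 (voom), a block for the mouse or for the replicate number, a threshold of 0.05, keeping all genes regardless of count, fits to the compared groups alone, and fits with 1 mouse removed.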

Additional observations from a re-analysis of the deposited data

Results flagged for a closer look

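In 160 groups of 4 untreated libraries tested, 1 for each member and population, 11 held a library far from the other 3 by Dixon's criterion, where chance flags about 1 in 20. Of these, 10 were a high value of mouse U3. In GFP+ stroma they were *Zbp1* at 94.0 CPM (others 39.1 to 43.1), *Ifi44* at 26.2 (3.47 to 6.91), *Cmpk2* at 84.3 (27.9 to 37.4) and *Gbp3* at 212.8 (88.7 to 103). In tdTomato+ stroma they were *Oas2* at 5.93 (1.31 to 1.99), *Oas3* at 1.81 (0 to 0.179) and *Oasl2* at 55.9 (24.6 to 28.1). In GFP+ luminal cells they were *Irf1* at 75.2 (45.2 to 49.5), *Mx1* at 7.75 (0.774 to 1.69) and *Usp18* at 17.2 (1.95 to 3.80). The remaining one was a low value of *Gbp2* in tdTomato+ stroma of mouse U1, at 65.7 CPM (106 to 110.6).

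The difference of GFP+ from tdTomato+ cells in stroma, less that in luminal cells, passed an adjusted p of 0.01 in edgeR for 19 members, with these log2 values. Among signalling factors and sensors it was 0.99 for *Irf1*, 0.97 for *Irf7*, 0.66 for *Irf9*, 1.54 for *Stat2*, 2.04 for *Dhx58*, 2.27 for *Zbp1* and 1.32 for *Eif2ak2*. Among effectors it was -2.44 for *Ifit2*, 3.61 for *Oas1a*, 5.22 for *Oas2*, 5.42 for *Oas3*, 1.72 for *Oasl2*, 2.77 for *Rsad2*, 2.82 for *Bst2* and 1.56 for *Xaf1*. It was 5.05 for *Usp18*, 1.04 for *Psmb8*, 0.84 for *Tap2* and 2.91 for *B2m*.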

How the results depend on the processing

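Over all alternatives and 14 comparisons, 159 calls of a member kept their sign under each alternative run, and 97 stayed past the threshold in each. Numbers of members called are given with the number under the alternative first and the reported number second. An adjusted p under 0.05 gave 10 for 4 (GFP+ against tdTomato+ luminal, untreated), 31 for 20 (stroma, untreated), 7 for 2 (E+P, GFP+ luminal), 2 for 1 (E+P, GFP+ stroma) and 4 for 0 (E+P by luminal subset). The DESeq2 Wald test gave 7 for 4, 7 for 2, 3 for 1 and 3 for 0 in the luminal untreated, E+P GFP+ luminal, E+P GFP+ stroma and E+P by luminal subset comparisons. For E+P in GFP+ stroma limma gave 4 for 1. For E+P by luminal subset limma gave 2, library size only 1, DESeq2 size factors 1 and no filter 1, for 0. Without the low-count filter there were 33 for 20 and 21 for 13 (stroma, untreated and E+P), 8 for 1, 5 for 0 and 6 for 0 (E+P in GFP+ stroma, in tdTomato+ stroma and by stromal subset). Fitting only the groups compared gave 13 for 20 and 21 for 13 (stroma, untreated and E+P) and 2 for 1 (E+P, GFP+ stroma), and for the averages over treatment it is the fit reported. With the mouse as a replicate block there were 7 for 4 (luminal, untreated) and 5 for 0 (E+P by luminal subset), and no other number moved over 1.5 times. With the replicate number as a replicate block, which joins different mice (mean correlation -0.07 to 0.02 over populations), there were 0 for 2 and 8 for 16 (E+P in GFP+ and tdTomato+ luminal cells). The causes were not tested.

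Leaving out each mouse gave 9 to 15 calls between luminal subsets, 1 to 6 untreated and 4 to 14 with E+P. It gave 6 to 18 between stromal subsets with E+P, 0 to 3 for E+P in GFP+ luminal, 4 to 17 in tdTomato+ luminal, 1 to 2 in GFP+ stroma and 0 to 1 in tdTomato+ stroma. Scaling by library size only moved the median of all genes to -0.27 for stroma against luminal cells and for E+P in tdTomato+ luminal cells, -0.28 for the difference between lineages and 0.20 between luminal subsets with E+P. Members near 1 CPM, such as *Ifit3* and *Oas3* in luminal cells, are limited by depth.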
